A study of Mus musculus with 6 samples.

Results

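The genes described here are 8 mouse genes of ketone body metabolism and monocarboxylate transport, taken by symbol from a table of counts for 24197 genes. They are the dehydrogenases Bdh1 and Bdh2, the enzymes Oxct1, Acat1 and Aacs, and the carriers Slc16a1, Slc16a6 and Slc16a7, and the table held all 8. Polyadenylated RNA was sequenced from stromal-vascular cells of inguinal adipose tissue of C57BL/6 mice, the fraction that holds adipocyte progenitors, fibroblasts, vascular and immune cells. The cells had received either a retrovirus with Prdm16, a transcriptional regulator of brown and beige fat cell identity, or a control (puro) retrovirus, with 3 libraries in each group, called Prdm16 and Puro here. All cells grew in standard medium, and the labels name no other agent, no age and no induction of fat cell formation. They do not say whether the libraries of a group came from separate cultures or animals, so that p-values measure the spread between these libraries, and that spread may be technical.

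Ketone bodies, acetoacetate and beta-hydroxybutyrate, are made in liver mitochondria from acetyl-CoA and burned in other tissues. Bdh1 interconverts the pair, Oxct1 transfers CoA to acetoacetate so that the thiolase Acat1 can split it for oxidation, and the cytosolic ligase Aacs turns acetoacetate toward lipid and sterol synthesis. Some carriers of the Slc16 family move ketone bodies, lactate and pyruvate across the plasma membrane together with protons.

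The libraries held 28169059 to 34349660 counts in the Prdm16 group and 31866630 to 35798201 in the Puro group. The Prdm16 gene itself averaged 2656 ± 146 CPM in Prdm16 libraries and 0.609 ± 0.148 CPM in Puro libraries (SD, n = 3 each), where CPM are counts scaled to library size with TMM factors, and reads of the delivered and the endogenous gene were counted together. A count of 0 was bounded at 3 counts, which stood for 0.0852 to 0.104 CPM in a library, and this bound covers counting error only. Of 7 tested markers of stromal progenitors, 5 were lower in Prdm16 libraries (Pdgfrb, Cd34, Thy1, Col1a1 and Dlk1), Ly6a was higher and Pdgfra did not pass, and Thy1 passed the low-count filter only through the Puro group. Over all tested genes 38.0% were called lower and 37.5% higher. Pdgfra, the marker nearest to equal, averaged 188 ± 6.64 CPM in Prdm16 libraries and 199 ± 9.57 CPM in Puro libraries (SD, n = 3 each). Of 5 hepatocyte markers, Ttr, Serpina1a and Cyp2e1 had 0 counts in all 6 libraries, and the 5 together came to 0.0284 to 0.0691 CPM per Prdm16 library and 0 to 0.201 CPM per Puro library. Log2 fold changes are Prdm16 over Puro ± SE, and a change was called at an adjusted p below 0.05 in the quasi-likelihood test of edgeR, with p-values adjusted by Benjamini-Hochberg over the 13805 tested genes.

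The sequence before the start of 4 transcripts is shown because the dehydrogenases Bdh1 and Bdh2 differed in opposite directions, with Slc16a1 as a carrier whose level differed least. Each line gives the 250 bases before a RefSeq transcript start in build GRCm38.p6, on the plus strand, with capitals for motif matches on either strand. The motifs searched were the nuclear receptor hexamer AGGTCA, its extended form AAGGTCA which contains the shorter one, the E-box written CACGTG, the GC box written GGGCGG, the CCAAT box and the TATA box in its form TATAAA.
Bdh1, upstream start, chr16:31422047-31422296: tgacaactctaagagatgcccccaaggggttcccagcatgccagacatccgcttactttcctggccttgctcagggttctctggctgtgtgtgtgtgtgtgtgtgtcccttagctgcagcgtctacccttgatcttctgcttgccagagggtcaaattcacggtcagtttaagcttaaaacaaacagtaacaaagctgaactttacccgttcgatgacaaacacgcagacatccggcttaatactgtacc
Bdh1, downstream start, chr16:31428503-31428752: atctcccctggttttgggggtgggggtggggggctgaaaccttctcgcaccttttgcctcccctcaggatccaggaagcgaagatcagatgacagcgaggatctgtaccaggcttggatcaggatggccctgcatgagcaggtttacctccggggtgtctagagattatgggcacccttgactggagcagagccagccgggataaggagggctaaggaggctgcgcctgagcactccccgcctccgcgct
Bdh2, chr3:135280971-135281220: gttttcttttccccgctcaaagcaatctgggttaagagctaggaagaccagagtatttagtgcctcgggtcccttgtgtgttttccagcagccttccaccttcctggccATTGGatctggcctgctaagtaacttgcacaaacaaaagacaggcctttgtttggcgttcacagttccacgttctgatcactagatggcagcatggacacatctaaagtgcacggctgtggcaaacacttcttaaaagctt
Slc16a1, chr3:104638414-104638663: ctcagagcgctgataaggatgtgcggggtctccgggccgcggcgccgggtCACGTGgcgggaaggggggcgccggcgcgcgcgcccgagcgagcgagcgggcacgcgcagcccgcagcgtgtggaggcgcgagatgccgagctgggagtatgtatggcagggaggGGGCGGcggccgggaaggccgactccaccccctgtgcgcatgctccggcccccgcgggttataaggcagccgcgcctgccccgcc
Neither Bdh1 window held any of the 6 motifs. The Bdh2 window held the CCAAT box on its minus strand, its first base in the printed orientation lying 141 bases before the start, as did 33.8% of 32851 windows of this length. The Slc16a1 window held the E-box 200 bases before the start and the GC box 85 bases before it, motifs found in 6.02% and 32.7% of the windows. Slc16a1 had 37 CpG dinucleotides in 250 bases and Aacs 22, against 5 in Bdh2, 6 in Oxct1, 7 and 9 in the Bdh1 windows and a median of 6 over all windows. The nuclear receptor hexamer, its extended form and the TATA box, present in 14%, 4.08% and 12.4% of windows, were in none of the windows of Bdh1, Bdh2, Oxct1, Aacs and Slc16a1, the 5 genes with an entry. Acat1, Slc16a6 and Slc16a7 were not matched. A match to these letters is a description and says nothing of binding.

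All 8 genes passed the filter on low counts, 5 were higher and 3 lower in Prdm16 libraries, and for each of them the groups did not overlap. Over all tested genes 75.6% were called, 37.5% higher and 38.0% lower, and the groups did not overlap for 77.6%, so that calls alone do not set these genes apart. Bdh1 passed the filter only through the Prdm16 group, and Slc16a6 and Slc16a7 only through the Puro group, so that these 3 had to differ to be tested. The enzymes that handle acetoacetate, Oxct1, Acat1 and Aacs, were higher by 1.46-fold to 1.96-fold, and the main carrier Slc16a1 by 1.27-fold. The largest differences were those of Bdh1, Slc16a7 and Bdh2, at the 99.1, 1.48 and 4.67 percentiles of the log2 fold change among all tested genes.

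**Figure D1:**
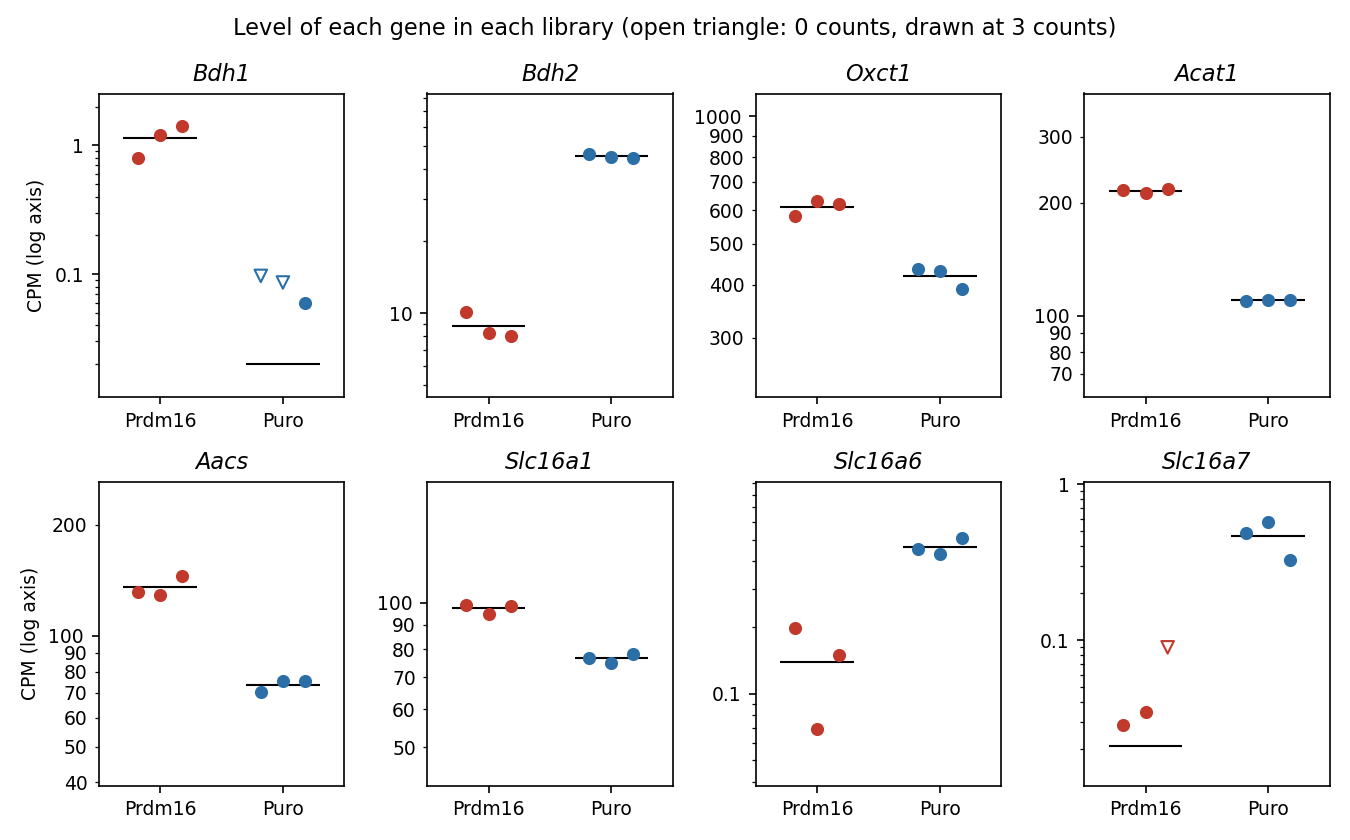
CPM of the 8 genes in each of the 3 Prdm16 and 3 Puro libraries on log axes that differ between panels; horizontal lines are group means, which include 0 counts, and open triangles mark libraries with 0 counts, drawn at 3 counts. Oxct1, Acat1, Aacs, Slc16a1 and Bdh1 lay higher and Bdh2, Slc16a6 and Slc16a7 lower in every Prdm16 library than in any Puro library.

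**Figure D2:**
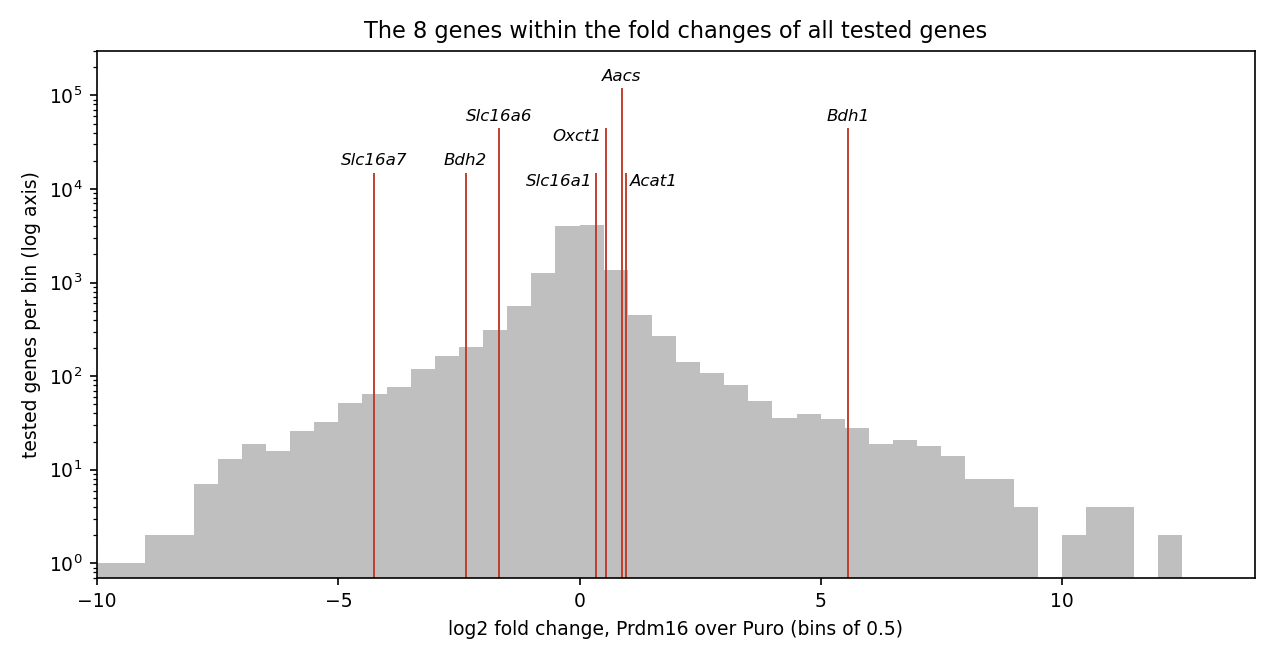
Number of tested genes in bins of 0.5 of the log2 fold change, Prdm16 over Puro, with a line at the fitted value of each of the 8 genes. Bdh1 (5.57) and Slc16a7 (−4.26) lay in the tails, and Slc16a1, Oxct1, Aacs and Acat1 lay at 0.35 to 0.97.

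Bdh1, the mitochondrial dehydrogenase of beta-hydroxybutyrate, was nearly absent from Puro libraries. It had 28, 35 and 47 counts in the Prdm16 libraries, against 0, 0 and 2 counts in the Puro libraries. Every Prdm16 library was above every Puro library, and Puro replicate 3 held both counts of its group. The summed counts of 110 in Prdm16 and 2 in Puro libraries gave a ratio of 56.1, with 15.2 to 469 as its exact 95% binomial interval for counting error (adjusted p = 7.06e-06, edgeR). Bdh1 passed the low-count filter only through the Prdm16 group and had to be higher to be tested, so that its p-value is no separate support. Without Puro replicate 3 the Puro group was at 0 and Bdh1 was at least 24.8-fold higher, against a bound of 3 counts over that group. The fitted log2 fold change was 5.57 with all libraries and 8.21 without that one, and such values depend on the prior count. Even in Prdm16 libraries the level stayed low, at 1.14 ± 0.313 CPM, against 0.0199 ± 0.0344 CPM in Puro libraries (SD, n = 3 each), and the Prdm16 libraries varied by 27.5% of their mean.

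Bdh2, a cytosolic enzyme classed as a beta-hydroxybutyrate dehydrogenase and studied mainly for iron handling, differed the other way. Its level was 10.1, 8.22 and 8.0 CPM in Prdm16 libraries, against 46.2, 45.3 and 44.7 CPM in Puro libraries. The groups were far apart relative to their spread. Bdh2 fell by 2.36 ± 0.08 on the log2 scale, to 5.15-fold lower (adjusted p = 3.07e-10, edgeR). Its log2 fold change was −2.17 with the median of chromosome 3, −0.20, removed. Despite these changes Bdh2 remained the more abundant gene of the pair in both groups. Per kilobase of exon, Bdh1 made up 2.46%, 4.51% and 5.35% of the summed counts of Bdh1 and Bdh2 in Prdm16 libraries, against 0%, 0% and 0.0428% in Puro libraries. The share of Bdh1 was 4.09 percentage points higher in Prdm16 libraries, with a two-sided exact permutation p of 0.1, the smallest that 3 against 3 libraries can give (0.1 also after adjustment over 4 shares). Since Bdh1 passed the low-count filter only through the Prdm16 group, the test of its share is no separate support. Without division by exon length the difference was 11.6 points.

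The enzymes that prepare ketone bodies for use were abundant and higher. Oxct1, the CoA transferase that commits acetoacetate to oxidation, had 582, 630 and 620 CPM in Prdm16 libraries, against 435, 430 and 390 CPM in Puro libraries. The lowest Prdm16 library lay above the highest Puro library. Its log2 fold change was 0.55 ± 0.05 (1.46-fold, adjusted p = 1.19e-06, edgeR), and 0.93 once the median log2 fold change of its chromosome, −0.38 for chromosome 15, was removed. Of its exon bases, 13.2% were also exon of the opposite-strand gene BC037032, which averaged 1.03 CPM in Prdm16 and 1.8 CPM in Puro libraries.

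Acat1, the mitochondrial acetoacetyl-CoA thiolase, had 217, 212 and 217 CPM in Prdm16 libraries, against 109, 110 and 110 CPM in Puro libraries. Both groups were tight, with standard deviations of 1.29% and 0.476% of the mean in Prdm16 and Puro libraries. Its log2 fold change was 0.97 ± 0.03 (1.96-fold, adjusted p = 3.86e-10, edgeR). Aacs, the ligase that activates acetoacetate in the cytosol, had 131, 129 and 145 CPM in Prdm16 libraries, against 70.6, 75.3 and 75.3 CPM in Puro libraries. It was higher in each Prdm16 library, with a log2 fold change of 0.88 ± 0.05 (1.83-fold, adjusted p = 4.00e-08, edgeR), and 0.69 with the median of chromosome 5, 0.18, removed.

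Slc16a1, the carrier MCT1 found in most tissues, had 99.1, 94.9 and 98.6 CPM in Prdm16 libraries, against 76.7, 74.9 and 78.3 CPM in Puro libraries. The groups did not overlap, and the difference was the smallest among the 8 genes. Its log2 fold change was 0.35 ± 0.04 (1.27-fold, adjusted p = 8.55e-06, edgeR), and 0.55 with the median of chromosome 3, −0.20, removed.

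Slc16a6, whose zebrafish counterpart exports ketone bodies from the liver, had only a few counts, 7, 2 and 5 in Prdm16 libraries, against 14, 15 and 17 in Puro libraries. The Prdm16 libraries lay between 0.0691 and 0.199 CPM and the Puro libraries between 0.430 and 0.507 CPM. Its log2 fold change was −1.66 ± 0.37 (adjusted p = 0.00178, edgeR), and its summed counts of 14 in Prdm16 and 46 in Puro libraries stood at a ratio of 0.310 (0.158 to 0.574 by counting error). It passed the low-count filter only through the Puro group and had to be lower to be tested, so that its p-value is no separate support. Of its exon bases 13.5% were also exon of Amz2 and 1.06% exon of Arsg, both on the opposite strand. Amz2 averaged 45.8 CPM in Prdm16 and 57.4 CPM in Puro libraries and Arsg 3.34 CPM in Prdm16 and 6.22 CPM in Puro libraries, both far above Slc16a6, and the part of their reads in its counts was not tested. Whether reads were counted by strand is not given here.

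Slc16a7, the high-affinity carrier MCT2, had 1, 1 and 0 counts in Prdm16 libraries, against 15, 20 and 11 counts in Puro libraries. Each Prdm16 library was below each Puro library. The summed counts of 2 in Prdm16 and 46 in Puro libraries stood at a ratio of 0.0443, 0.00521 to 0.169 by counting error (adjusted p = 7.10e-05, edgeR). Slc16a7, too, passed the low-count filter only through the Puro group and had to be lower to be tested. At this depth the gene was close to the limit of detection in Prdm16 libraries, and the data do not show that it was silent.

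Slc16a1 made up nearly all of the counts per kilobase of the 3 carriers in both groups. Its share was 99.8%, 99.9% and 99.9% in Prdm16 libraries, against 99.2%, 99.2% and 99.2% in Puro libraries, a difference of 0.669 percentage points. Slc16a6 held 0.138 ± 0.0629% of the sum in Prdm16 libraries and 0.585 ± 0.0378% in Puro libraries (SD, n = 3 each), and Slc16a7 held 0.00833 ± 0.00736% in Prdm16 libraries and 0.231 ± 0.0666% in Puro libraries (SD, n = 3 each). The groups did not overlap for any of these shares, and each gave the smallest possible two-sided exact permutation p of 0.1 (0.1 after adjustment over 4 shares). Since Slc16a6 and Slc16a7 passed the low-count filter only through the Puro group, the tests of these shares are no separate support. Without division by exon length the difference was 1.03 points for Slc16a1 and −0.576 points for Slc16a7, against −0.222 points for Slc16a7 per kilobase. The differences in share were small, although the log2 fold changes of Slc16a6 and Slc16a7 were larger than that of Slc16a1.

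In Prdm16 libraries the order of the mean levels per kilobase of exon was Oxct1, Acat1, Aacs, Slc16a1, Bdh2, Bdh1, Slc16a6 and Slc16a7. In Puro libraries it was Oxct1, Bdh2, Acat1, Aacs, Slc16a1, Slc16a6, Slc16a7 and Bdh1. Neighbours in these orders did not overlap in any library of the group. Bdh2 stood at 7.50 ± 1.0 RPKM in Prdm16 libraries, below Slc16a1 at 22 ± 0.512 RPKM (SD, n = 3 each), whereas in Puro libraries it stood at 38.7 ± 0.665 RPKM, 1.20-fold above Acat1. That place rested on exon lengths, 1172 bases for Bdh2 and 3405 for Acat1, which may differ from those used for counting. Not divided by length, Bdh2 had 45.4 CPM in Puro libraries, below Acat1 (110), Slc16a1 (76.6) and Aacs (73.7). Slc16a6 and Slc16a7 had 46 counts each over the Puro libraries, so that length set their order there. Bdh1 stood at 0.312 ± 0.0857 RPKM in Prdm16 libraries and 0.00545 ± 0.00943 RPKM in Puro libraries (SD, n = 3 each), and Oxct1, the most abundant of the 8, at 173 ± 7.24 RPKM in Prdm16 libraries and 119 ± 6.93 RPKM in Puro libraries (SD, n = 3 each).

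Outside the 8 genes, the cytosolic thiolases Acat2 and Acat3, which make acetoacetyl-CoA, were both higher, with log2 fold changes of 0.95 ± 0.07 and 1.18 ± 0.19. Over all tested genes 37.5% were called higher. Acat2 and Acat3 are close paralogs, and 25.9% of the exon bases of Acat3 were also exon of the opposite-strand gene Tcp1, so that their single values are uncertain. Per kilobase, Acat2 made up 36.4 ± 2.28% of the sum of Acat1 and Acat2 in Prdm16 libraries and 36.8 ± 1.75% in Puro libraries (SD, n = 3 each), a difference within the spread of the libraries. Hmgcs1, the cytosolic synthase of sterol synthesis, was listed at 0 in all 6 libraries, and since the annotation used for counting is not known here, this is not read as absence of the transcript. The testis forms Oxct2a and Oxct2b had at most 2 counts over any group and were left untested.

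**Figure D3:**
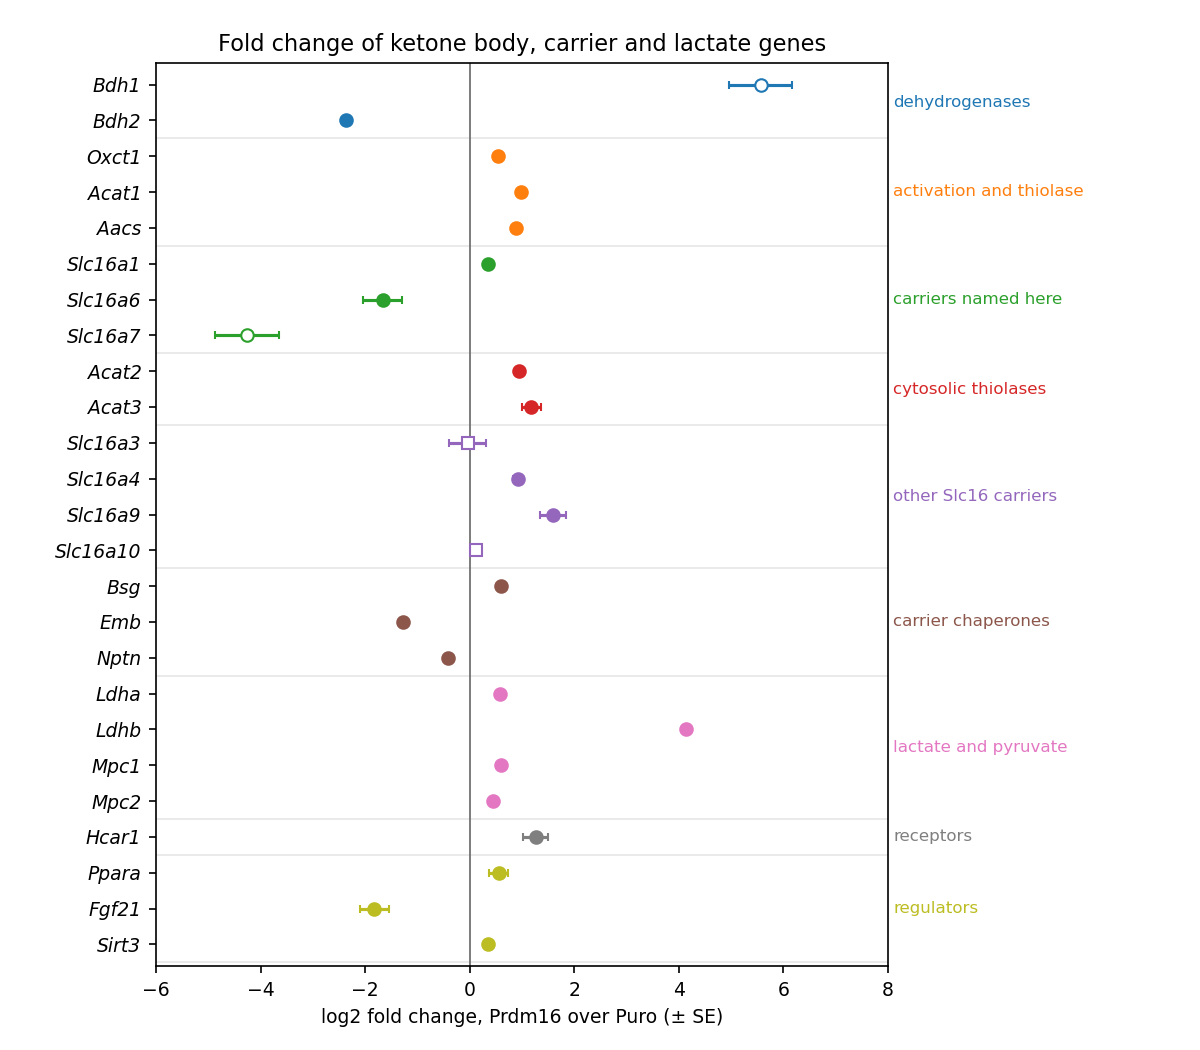
Log2 fold change, Prdm16 over Puro, of the 8 genes and of the tested genes of 6 related lists, with bars for ± SE; squares did not pass the test and open circles had 3 counts or fewer over a group. Bdh1 (5.57) and Ldhb (4.14) lay far to the right, and Slc16a7 (−4.26), Bdh2 (−2.36) and Fgf21 (−1.82) far to the left.

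Of 10 other Slc16 carriers, 4 were tested, and 2 of them were higher and 2 did not pass, where 37.5% of all tested genes were higher. Slc16a4, a carrier of unknown substrate, had 0.92 ± 0.10, and Slc16a9, linked to carnitine in humans, had 1.60 ± 0.25. Slc16a10, a carrier of aromatic amino acids, had 0.11 ± 0.05 (adjusted p = 0.0754, edgeR), and its adjusted p ran from 0.0261 to 0.234 over 14 alternatives, below 0.05 in 4 of them. Slc16a3, the lactate exporter MCT4 of glycolytic cells, had 0.824, 0.345 and 0.839 CPM in Prdm16 libraries, against 0.452, 0.688 and 0.954 CPM in Puro libraries, and its groups overlapped (log2 fold change −0.04 ± 0.35, adjusted p = 0.926, edgeR). The 6 untested carriers had at most 26 counts over a group. The sodium-coupled carriers Slc5a8 and Slc5a12 had at most 9 counts over a group and were not tested.

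Some carriers of this family reach the plasma membrane with the help of immunoglobulin-type chaperones, and the chaperone genes went in different directions. Of 3, all tested, 1 was higher and 2 lower, where 75.6% of all tested genes were called in either direction. Bsg, the partner of Slc16a1 and Slc16a3, had 1371, 1074 and 1189 CPM in Prdm16 libraries, against 787, 811 and 799 CPM in Puro libraries. The Prdm16 libraries were higher throughout and more spread (log2 fold change 0.60 ± 0.07, adjusted p = 1.42e-05, edgeR). Emb, the partner of Slc16a7, had 24.1, 24.5 and 24.5 CPM in Prdm16 libraries, against 61.5, 60.1 and 55.8 CPM in Puro libraries (log2 fold change −1.28 ± 0.05, adjusted p = 9.79e-10, edgeR). Nptn, a relative of Bsg, had −0.42 ± 0.03, and 4.61% of its exon bases were also exon of the opposite-strand gene Rec114. Per kilobase, Bsg made up 92.0 ± 0.924% of the sum of the 3 chaperones in Prdm16 libraries and 83.8 ± 0.412% in Puro libraries (SD, n = 3 each).

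Lactate and pyruvate share some of these carriers, and 4 of 6 genes of their metabolism were tested, all of them higher. Over all tested genes 37.5% were called higher. Ldhb, the lactate dehydrogenase subunit of oxidative tissues, had 470, 501 and 524 CPM in Prdm16 libraries, against 29.5, 28.8 and 26.6 CPM in Puro libraries. The groups were more than 10-fold apart in every library, and Ldhb stood at the 98.3 percentile of all tested genes (log2 fold change 4.14 ± 0.06, adjusted p = 5.15e-13, edgeR). Ldha, the subunit of glycolytic tissues, had 0.57 ± 0.05, and the subunits of the mitochondrial pyruvate carrier, Mpc1 and Mpc2, had 0.61 ± 0.09 and 0.45 ± 0.05. Of the exon bases of Mpc1, 12.7% were also exon of an opposite-strand gene. Per kilobase, Ldhb made up 48.5%, 53.2% and 52.7% of the sum of Ldha and Ldhb in Prdm16 libraries, against 8.42%, 8.51% and 7.79% in Puro libraries. The pair was thus near parity in Prdm16 libraries, and Ldha predominated in Puro libraries.

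**Figure D4:**
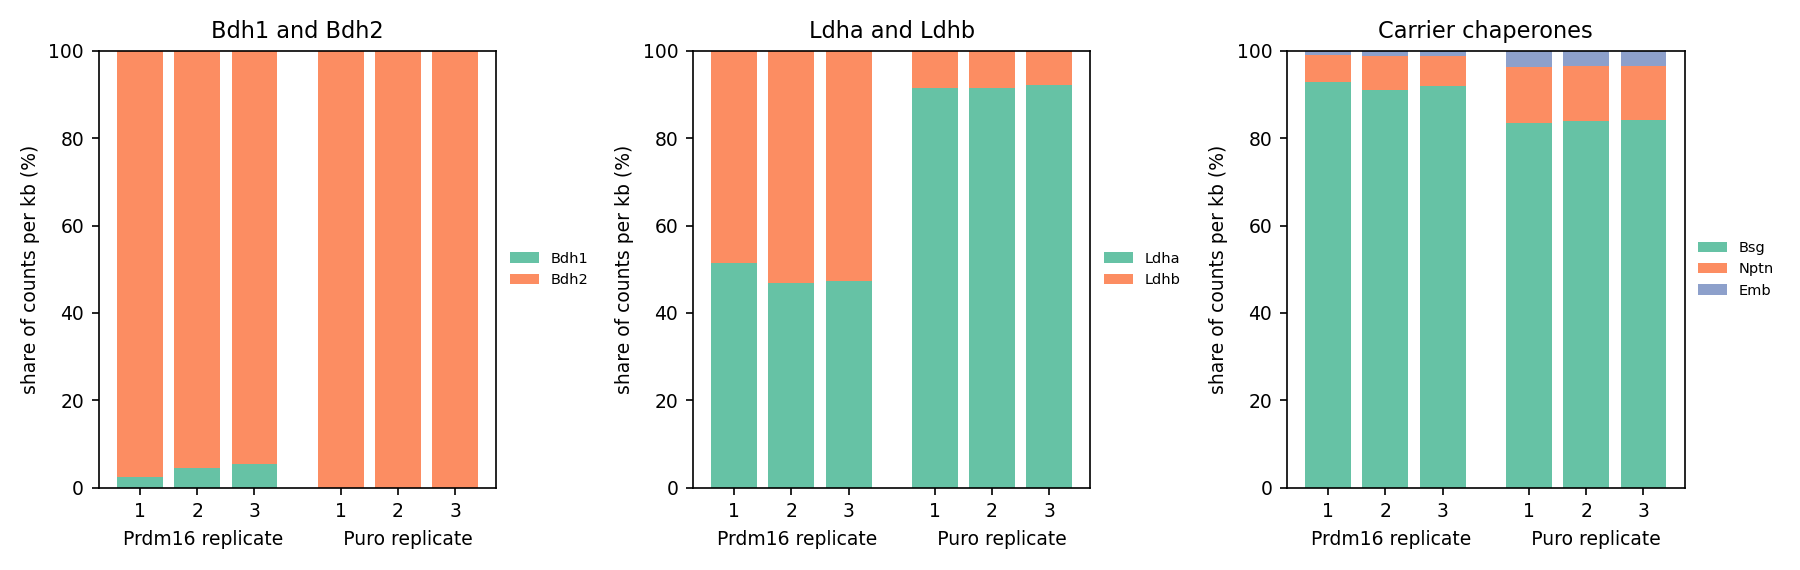
Stacked shares, in percent of counts per kilobase of exon, of Bdh1 and Bdh2, Ldha and Ldhb, and the chaperones Bsg, Nptn and Emb in each Prdm16 and each Puro library. The Ldhb share averaged 51.5% in Prdm16 libraries and 8.24% in Puro libraries, while Bdh2 made up over 90% of its pair in every library.

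Markers of cell types differed between the same libraries. The 8 stromal progenitor markers came to 1473 to 1573 CPM per Prdm16 library and 2697 to 3169 CPM per Puro library. Without Col1a1 the other 7 came to 1349 to 1404 CPM per Prdm16 library and 1135 to 1171 CPM per Puro library. Most of that sum was Ly6a in the Prdm16 group. Without Ly6a as well, the other 6 came to 381.13 to 391.67 CPM per Prdm16 and 758.19 to 785.98 CPM per Puro library. Of these sums, only the one with Ly6a and without Col1a1 was higher in Prdm16 libraries. The 4 tested adipocyte markers were higher, where 37.5% of all tested genes were called higher. Of the 4 markers, Cidec had to be higher, since it passed the low-count filter only through the Prdm16 group. Adipoq reached the cutoff of that filter in 3 Prdm16 and 2 Puro libraries, so that the filter did not force its direction. The 6 markers listed came to 590 to 693 CPM per Prdm16 library and 157 to 177 CPM per Puro library. Most of this was Fabp4, at 551 CPM in Prdm16 and 115 CPM in Puro libraries. Pparg, at 74.5 CPM in Prdm16 and 54.3 CPM in Puro libraries, made up most of the rest. Adipoq had 231 counts over the Prdm16 and 28 over the Puro libraries, while Plin1 had 9 and Lep 5 over the Prdm16 libraries and 10 and 0 over the Puro libraries. The 4 tested epithelial markers, Epcam, Krt18, Cdh1 and Esrp1, passed that filter only through the Prdm16 group and so had to be higher, and the 6 listed came to 26.6 to 28.2 CPM per Prdm16 library and 0.194 to 0.328 CPM per Puro library, with Krt8 at 4 counts over each group and Krt14 at 2 counts over the Prdm16 and 1 over the Puro libraries. The 5 endothelial markers came to 9.0 to 11.9 CPM per Prdm16 library and 1.67 to 1.83 CPM per Puro library, with Cdh5 at 0 in all libraries. This difference was that of Tek alone, without which the other 4 came to 0.426 to 0.553 CPM per Prdm16 library and 0.487 to 0.645 CPM per Puro library. The 5 macrophage markers came to 4.66 to 4.94 CPM per Prdm16 library and 3.64 to 4.76 CPM per Puro library, with Adgre1 at 0. Most of this was Cd68, at 4.60 CPM in Prdm16 and 3.85 CPM in Puro libraries, which did not pass the test. Csf1r had 9 counts over the Prdm16 and 31 over the Puro libraries, Ptprc 7 and 0, and Itgam 5 and 4. The part of such cells in the values of Bdh1, Bdh2 and Ldhb was not tested. In such bulk samples fewer cells of a type and less RNA per cell cannot be told apart.

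For each of the 8 genes, the tested gene with the most similar pattern was found by the Euclidean distance between centred log2 CPM profiles over the 6 libraries. It was Kpna3 for Oxct1 (distance 0.0162), Dtymk for Slc16a1 (0.0172), Lbr for Acat1 (0.0431), Tob1 for Aacs (0.0810) and Plxna2 for Bdh2 (0.0880). The genes with few counts had more distant neighbours, Ccdc78 for Slc16a6 (0.275), Cldn19 for Bdh1 (0.379) and Hs3st5 for Slc16a7 (0.382). Kpna3 and Oxct1 both had a log2 fold change of 0.55, and Cldn19 had 4.51 beside 5.57 for Bdh1. Near fold changes follow from a choice by distance over the same libraries and are no separate result.

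**Figure D5:**
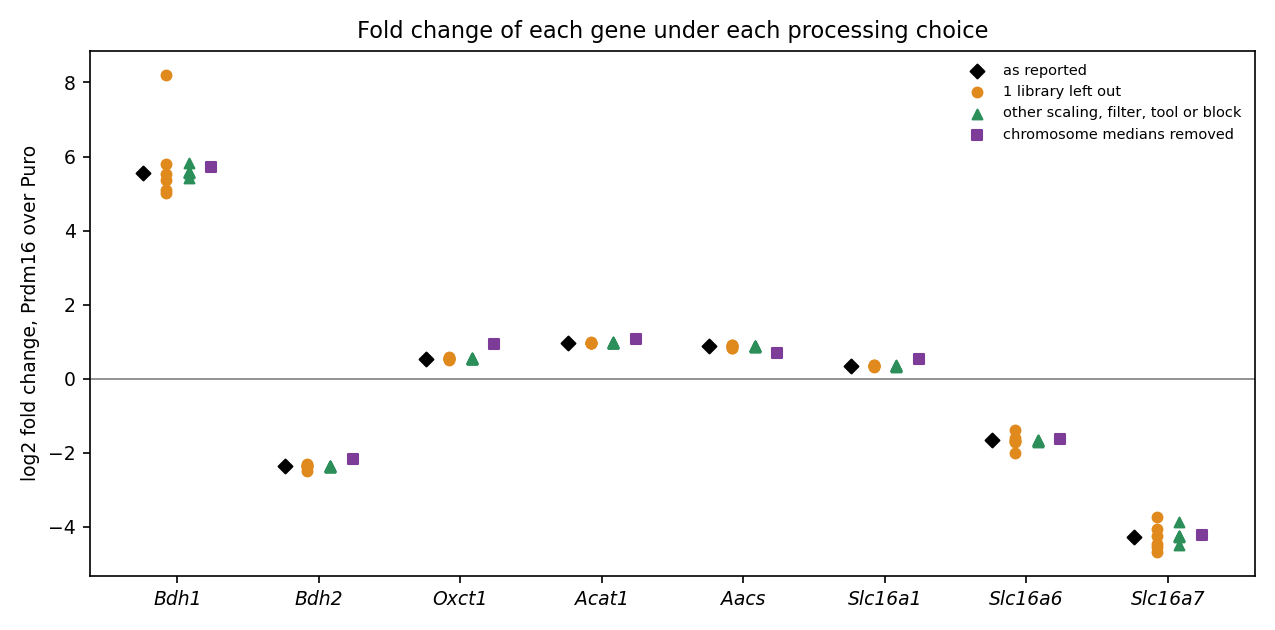
Log2 fold change, Prdm16 over Puro, of each of the 8 genes as reported, with 1 library left out, with another scaling, filter, tool or replicate block, and with chromosome medians removed. No value crossed 0, and the widest range was that of Bdh1, 5.02 to 8.21.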

How the data were processed

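Polyadenylated RNA was isolated using Trizol plus PureLink columns and made into libraries with an Illumina TruSeq RNA kit, per the labels' protocols. The submitters' processing notes name STAR, featureCounts, Subread and mm9, without versions or roles. The authors deposited whole-number counts per gene symbol for 6 libraries in 1 table, without normalization. Reads of overlapping genes and close paralogs may be mixed, since the strand setting and the treatment of shared reads are not given here.

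Genes were kept by filterByExpr of edgeR 4.0.16 (R 4.3.3) with the group, which left 13805 of 24197. Libraries were scaled by TMM, and groups from the sample titles were set against each other with its two-sided quasi-likelihood test and Benjamini-Hochberg adjustment at 0.05. The test was checked on simulated counts with 200 changed genes. In these data 75.6% of tested genes were called, so that this check does not cover scaling or error rates in such a setting. Exon lengths (GENCODE M21, basic set) were unions of exons by symbol and gave RPKM and shares, and promoters came from RefSeq for GRCm38.p6. This build differs from mm9, so only names, lengths, chromosomes and sequences were used. Shares were compared by two-sided exact permutation tests (SciPy 1.17.1).

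Named genes were the 8 genes, up to 4 genes with the smallest p of each related list, some fixed genes and the nearest profile of each of the 8, predicted gene models left out. A few genes under this rule are not reported here. Marker genes, genes with shared exons and untested genes were named in addition, after their values were seen. The 8 genes and the lists were chosen with earlier results of these data known. Alternatives were other scalings, filters and tools (DESeq2 1.42.0, limma-voom 3.58.1), a replicate block, removal of chromosome medians and leaving out each library. Replicates of a group differed beyond sampling noise, with a chi-square per gene of 2.08 to 8.85 against 1 for noise alone.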

Additional observations from a re-analysis of the deposited data

How the results depend on the processing

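All 109 values of the 8 genes under 14 alternatives kept their direction and call. Of these, 13 values each belonged to Bdh1, Slc16a6 and Slc16a7. These 3 genes passed the low-count filter only through 1 group, so that their values are no separate support. Without 1 library each, the log2 fold changes ran from 5.02 to 8.21 for Bdh1, −2.48 to −2.29 for Bdh2, −2.0 to −1.38 for Slc16a6 and −4.67 to −3.73 for Slc16a7, and those of the other 4 genes moved by less than 0.1. Asking for 1 CPM or more in at least 3 libraries left 5 of the 8 genes, 4 of them higher and 1 lower, since Bdh1, Slc16a6 and Slc16a7 lacked that level. Without a filter on low counts 6 genes of the related lists were lower, against 3, because 31 rather than 17 were tested. Removing chromosome medians, which ran from −0.41 to 0.49, moved Slc16a1 from 0.35 to 0.55 and Oxct1 from 0.55 to 0.93. The differences also grew for Acat1, from 0.97 to 1.08, and Bdh1, from 5.57 to 5.71. They shrank for Aacs, from 0.88 to 0.69, and Bdh2, from −2.36 to −2.17. Slc16a6, from −1.66 to −1.61, and Slc16a7, from −4.26 to −4.23, shrank slightly. The cause was not tested. Slc16a3, which passed no test, reversed to 0.012 with chromosome medians removed and ran from −0.26 to 0.25 without 1 library each (0.24 without Prdm16 replicate 2, 0.25 without Puro replicate 3). Slc16a10 passed the test without a filter on low counts (0.13), with chromosome medians removed (0.15), without Prdm16 replicate 1 (0.15) and without Puro replicate 1 (0.16), against 0.11 as reported. Over all genes 9884 to 10444 were called without 1 library each, against 10430 with all 6.

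With the replicate number as a block, 10089 genes were called, with 5 of the 8 genes higher and 3 lower as before. The numbers share only a label: deviations of same-numbered libraries correlated at −0.30, 0.15 and −0.11 across genes. No Prdm16 library correlated best with the Puro library of its own number. Among Puro libraries, only replicate 2 correlated best with its own number. The highest value was 0.40, between Prdm16 replicate 1 and Puro replicate 3. The 4 shares kept their direction under each alternative. Bdh1, Slc16a6 and Slc16a7 rest on 2 to 110 counts over a group, so that counting error limits their size.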

Other observations

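Receptors for ketone bodies and lactate were low. Hcar1, a lactate receptor of adipocytes, had 1.70, 2.42 and 1.53 CPM in Prdm16 libraries, against 0.677, 0.659 and 0.983 CPM in Puro libraries, a log2 fold change of 1.26 ± 0.24 (adjusted p = 5.47e-04, edgeR), and it was higher in 3 of 3 Prdm16 libraries. Hcar2, the receptor of beta-hydroxybutyrate, had 8 counts over the Prdm16 and 7 over the Puro libraries, a ratio of 1.17 (0.369 to 3.77 by counting error), and was not tested. Ffar2 had 2 counts over the Prdm16 and 0 over the Puro libraries, and Ffar3 had 0 in all 6, which allows up to 0.104 CPM in the shallowest library.

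Among regulators of ketone synthesis in liver, 3 of 5 were tested, 2 higher and 1 lower, where 75.6% of all tested genes were called in either direction. Ppara, the nuclear receptor that drives the liver programme, had 1.87, 2.21 and 1.83 CPM in Prdm16 libraries, against 1.19, 1.69 and 1.10 CPM in Puro libraries. Its log2 fold change of 0.55 ± 0.19 (adjusted p = 0.0196, edgeR) lost its call with DESeq2 (0.57, adjusted p = 0.0648) and without Prdm16 replicate 2 (0.47), Puro replicate 1 (0.48) or Puro replicate 3 (0.43), and its adjusted p ran from 9.31e-04 to 0.0678 over 14 alternatives. Sirt3, a mitochondrial deacetylase, had 0.35 ± 0.07, and 8.82% of its exon bases were also exon of the opposite-strand gene Psmd13. Fgf21, a hormone made by fasting liver and by fat, had 23 counts over the Prdm16 and 84 over the Puro libraries, a log2 fold change of −1.82 ± 0.28 (adjusted p = 1.21e-04, edgeR), and it passed the low-count filter only through the Puro group, so that it had to be lower to be tested. Creb3l3 and Foxa2, transcription factors of liver, had 10 and 1 counts over the Prdm16 libraries and 30 and 10 over the Puro libraries, and were not tested.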
